A study of Mus musculus with 2 samples.

Results

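The cytosolic ribosomal protein genes and their paralogs were described in blood stem and progenitor cells of adult bone marrow and fetal liver. They were found by symbol. Every gene-directed probe present on both arrays was given a symbol through its transcript accession, and symbols of the Rpl and Rps series, the stalk genes Rplp0 to Rplp2 and Rpsa were kept, without the S6 kinases. This gave 85 of 20655 named genes, on 175 of 55664 probes. Of these, 77 are main genes (31 of the small subunit and 46 of the large subunit) and 8 are paralogs, whose symbols end in l or l with a digit, such as Rpl39l. The cells, called LSK cells, lacked lineage markers and bore the surface proteins Sca-1 and c-Kit, a fraction that holds haematopoietic stem cells. The adult sample was bone marrow of mice aged 8 weeks, strain C57BL/6. The fetal sample was liver of stage E14.5, for which the labels used here give no strain. Both were labelled wild type and not transplanted. Each was hybridised to 1 single-colour Agilent array, so there was no replicate, no test across samples and no p-value, and tissue, age and slide cannot be told apart.

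Ribosomal proteins coat the ribosomal RNAs of both subunits, and most are needed in equal numbers in each ribosome. In mammals their mRNAs usually begin with a C followed by a stretch of pyrimidines, the terminal oligopyrimidine (TOP) tract, through which growth signals switch their translation on and off together. Some of these genes have paralogs that are made in few tissues and can replace the main protein in the ribosome. In blood formation the family is known for Diamond-Blackfan anaemia, a failure of red cell production caused in humans by loss of a copy of a ribosomal protein gene.

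Signals below are processed signals of single arrays without scaling between arrays. Differences are on the log2 scale, fetal liver minus bone marrow, with each array divided by its own 75th percentile first. A ± gives the error that the image software assigns, which is technical alone. It came to the same 0.20 for every main gene, so it acts as a fixed width and not as a spread measured gene by gene. The sort markers Kit and Ly6a were well above background on both arrays. Kit differed by 0.01 and Ly6a by -2.28. Markers of other cell types differed between the tissues. Of the 8 erythroid markers 7 were measured, and all 7 were higher in fetal liver by 1.5-fold or more. The 8 had summed signals of 17878 (marrow) and 103186 (liver), of which Hbb-bt made up 16971 and 101150. Alas2, dim in bone marrow, was at a bound of 0.79, and Klf1, at low signals of 16.6 and 20.0, was at 0.68 ± 0.38. Of 9 neutrophil markers 5 were higher in bone marrow by 2-fold or more, and the 9 had summed signals of 146641 and 88703. Mpo, at -0.27, made up 117531 and 72987 of these sums, and S100a8, at 0.15, was the only positive marker. The 5 T and NK cell markers had summed signals of 13736 and 2690, of which Nkg7 made up 11792 and 1629. Ccl5 was at -3.51 and Nkg7 at -2.44. Cd3e was at 0.52, and Cd3g and Gzma, both dim in bone marrow, were at bounds of 0.81 and 3.03. Of 5 macrophage markers C1qa was dim on both arrays and 1 passed 2-fold, Fcgr1, dim in bone marrow, at a bound of 2.44. All 5 B cell markers were dim on both arrays. Of 5 hepatocyte markers Alb, Apoa1 and Ttr were dim on both arrays, while Afp was at -1.26 (1540 and 483) and Serpina1a at 0.75 (13.0 and 16.3). The part of such cells in the values below was not tested. In bulk samples, fewer cells of a type and less RNA per cell cannot be told apart.

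The main ribosomal protein genes differed little between the tissues, while 2 paralogs, Rps4l and Rpl39l, were more than 2-fold higher in fetal liver. All 77 main genes were well above background on both arrays. Their signals ran from 80678 to 466973 in bone marrow (median 231278) and from 47740.2 to 457318 in fetal liver (median 183091). The 175 probes of the family held 16.0% of the summed probe signal on each array (15.97% and 15.98%), and 36 of the 100 brightest probes belonged to it. Brightness also depends on the probe sequence, so it does not rank the genes by RNA. The median difference of the main genes was 0.18, with a range from -0.36 to 0.50 and an SD across genes of 0.20. Over all 13385 measured genes the median was 0.11 and the SD 0.89.

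A member was measured when it was well above background on either array, which held for 84. Of these, 2 were higher in fetal liver by 2-fold or more, a size that 6.73% of all measured genes passed. In the other direction 0 members passed 2-fold, against 8.17% of all genes. At a size of 1.5-fold the counts were 3 higher in fetal liver, against 17.6% of all genes, and 1 higher in bone marrow, against 14.9%. By the brightest probe of each gene, all 4 genes past 1.5-fold were paralogs. Among the main genes, 2 of 77 lay more than 2 technical errors from the median of all genes, against 40.6% of genes measured on both arrays. These 2 genes were Rps19 and Rps3a1, both lower in fetal liver. Positive differences were seen for 64 of 84 members, against 57.8% of all measured genes. The scatter of differences against signal shows the main genes as a narrow band at the bright end.

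**Figure D1:**
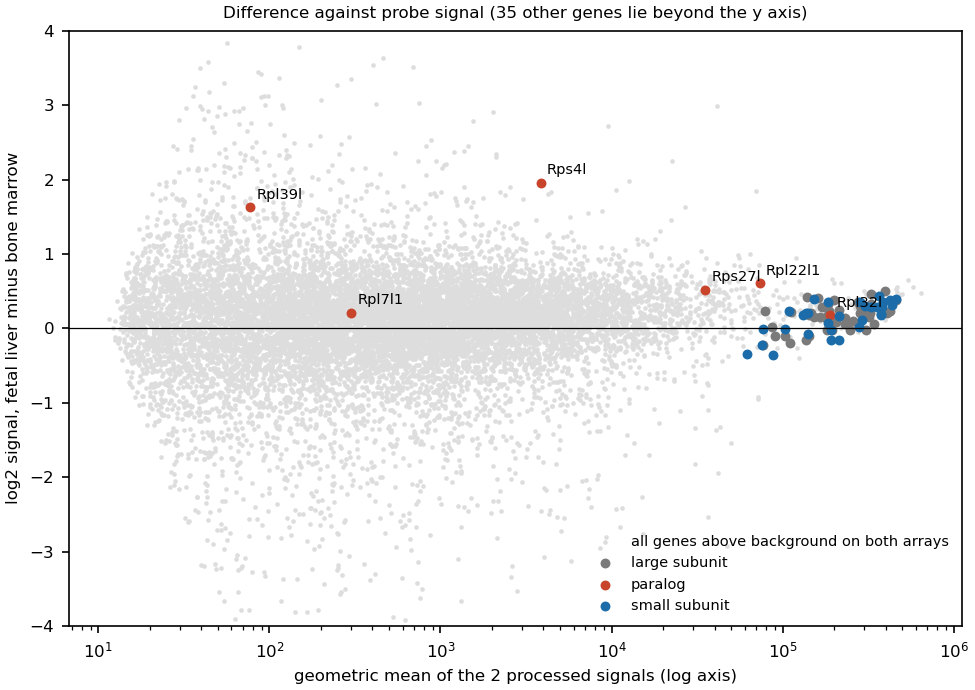
Difference (log2, fetal liver minus bone marrow, y axis) against the geometric mean of both processed signals (log x axis) for genes above background on both arrays, grey, with small subunit genes in blue, large subunit genes in dark grey and paralogs in red. The main genes lie between -0.36 and 0.50, and the paralogs Rps4l (1.96) and Rpl39l (1.63) lie above them at lower signals. The y axis ends at 4 on each side, and 35 other genes lie beyond it.

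Within this band, the difference rose with signal. Across the 77 main genes Spearman's rho between the difference and the mean log2 signal was 0.51 and Pearson's r 0.58, values across genes that share the same pair of arrays. Loess normalization, which fits the difference on signal over all genes above background on both arrays, moved the median to 0.03 for the family and to -0.01 for all measured genes. The relation within the main genes was about the same after it, with a rho of 0.52 and an r of 0.59.

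The start regions of the paralogs are shown, beside those of 3 main genes with a pyrimidine run. By the brightest probe of each gene, every difference past 1.5-fold was that of a paralog. Promoter sequences from RefSeq (build GRCm38.p6) matched 64 of the 85 members and 7 of the 8 paralogs, all but Rps4l. Each line gives 30 bases, 15 before and 15 from the annotated start, 5′ to 3′, with the longest run of C or T in capitals. Where a gene has several starts, the one with the longest run is printed. Rpl35 was added after its sequence was seen, as a main gene with a long run.
Rpl35 (large subunit; chr2:39005117-39005146, minus strand): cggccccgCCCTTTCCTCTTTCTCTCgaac
Rpl39 (large subunit; chrX:37085208-37085237, minus strand): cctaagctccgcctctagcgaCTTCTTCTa
Rpl39l (paralog of Rpl39; chr16:10170213-10170242, plus strand): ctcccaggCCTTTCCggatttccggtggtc
Rps27 (small subunit; chr3:90213634-90213663, minus strand): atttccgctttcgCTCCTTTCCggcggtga
Rps27l (paralog of Rps27; chr9:66946071-66946100, plus strand): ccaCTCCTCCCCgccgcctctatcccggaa
Rpl22l1 (paralog of Rpl22; chr3:28805493-28805522, plus strand): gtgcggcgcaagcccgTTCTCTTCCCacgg
Rpl32l (paralog of Rpl32; chr10:20208424-20208453, plus strand): aaataaaatgaccagCTTCTTCCTTggtgc
Rpl3l (paralog of Rpl3; chr17:24727811-24727840, plus strand): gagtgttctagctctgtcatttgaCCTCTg
Rpl7l1 (paralog of Rpl7; chr17:46782642-46782671, minus strand): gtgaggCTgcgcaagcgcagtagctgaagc
Rpl10l (paralog of Rpl10; chr12:66284387-66284416, minus strand): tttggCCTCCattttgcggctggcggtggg
Within 25 bases on each side of a start, a run of at least 8 pyrimidines was found for 30 of 57 main genes (52.6%) and 4 of 7 paralogs, against 22.3% of 27025 genes with a promoter in the table. The motif CTTCCGG, the core bound by ETS factors such as GABP, was present on either strand of the 300-base promoters of 24 of 57 main genes (42.1%) and 2 of 7 paralogs, against 9.93% of all genes. The motif GCCATNTT, the core bound by YY1, was present in 11 of 57 (19.3%) and 2 of 7, against 6.96%. An occurrence of one motif can share its end bases with the other, and such overlaps were not counted. The matches describe letters in a window, and binding was not measured.

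Of the paralogs, Rps4l showed the largest difference measured on both arrays. This gene on chromosome 6 is annotated as a transcribed pseudogene and resembles Rps4x, the X-linked gene of small subunit protein S4. Its signal was 2261 in the marrow sample against 6581 in the liver sample, 3.89-fold higher after scaling (1.96 ± 0.20). Rps4x had signals of 94946 and 60620.4 and a difference of -0.23 ± 0.20, so the pair went opposite ways. The difference of Rps4l exceeded that of Rps4x by 2.19 ± 0.29. Across the alternative settings this excess ran from 2.11 to 2.20. Part of the Rps4l signal can come from Rps4x transcripts if the probe binds both, and the value for Rps4l is uncertain to that extent. The likeness of the sequences was not checked.

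Rpl39l, known as a variant of male germ cells, was the other paralog past 2-fold. Its signals were 50.5 (marrow) and 117 (liver), 3.10-fold higher after scaling (1.63 ± 0.22). Both were low signals, the lowest of any probe well above background being 12.4 and 9.82. Its X-linked main gene Rpl39, which lines the exit tunnel of the large subunit, had signals of 227844 and 202115 and a difference of 0.24 ± 0.20. The excess of Rpl39l over Rpl39 was 1.39 ± 0.30 and fell to 0.91 with normexp background correction, where Rpl39l itself was at 0.95 and no longer past 2-fold.

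Rpl22l1 and Rps27l followed at smaller sizes. Rpl22l1 is the paralog of Rpl22, a protein needed for T cell development in mice. It had 68642 in the marrow sample against 78528 in the liver sample, a difference of 0.61 ± 0.20, which is just over 1.5-fold. Rpl22 stood at 178012 and 162140, a difference of 0.28 ± 0.20 by its brightest probe, so that the excess of the paralog was 0.33 ± 0.29. The second probe of Rpl22 gave -0.49, and the mean over both probes made the excess 0.71. Rps27l, a target of the tumour suppressor p53, had signals of 33958 and 36492 (0.52 ± 0.20). Its main gene Rps27 was at 0.28 ± 0.20, and the excess of 0.24 ± 0.29 was smaller than its technical error.

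The remaining paralogs did not stand apart in fetal liver. Rpl7l1 had signals of 322 and 279 (0.21 ± 0.20), within technical error of Rpl7 at 0.16. Rpl32l had signals of 206700 and 175312 (0.18 ± 0.20) against 0.32 for Rpl32. The value for Rpl32l is uncertain, since a probe of a close copy can bind both, and the likeness of these sequences was not checked. Rpl3l, the form of Rpl3 made in heart and skeletal muscle, was well above background in bone marrow alone, at 25.1 against 5.32. This put it at least 1.91-fold higher in bone marrow, a bound of -0.93 on the log2 scale, while Rpl3 differed by -0.10 ± 0.20. Rpl10l, a paralog of testis, stayed dim with both of its 2 probes on both arrays, at signals between 2.28 and 3.34.

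**Figure D2:**
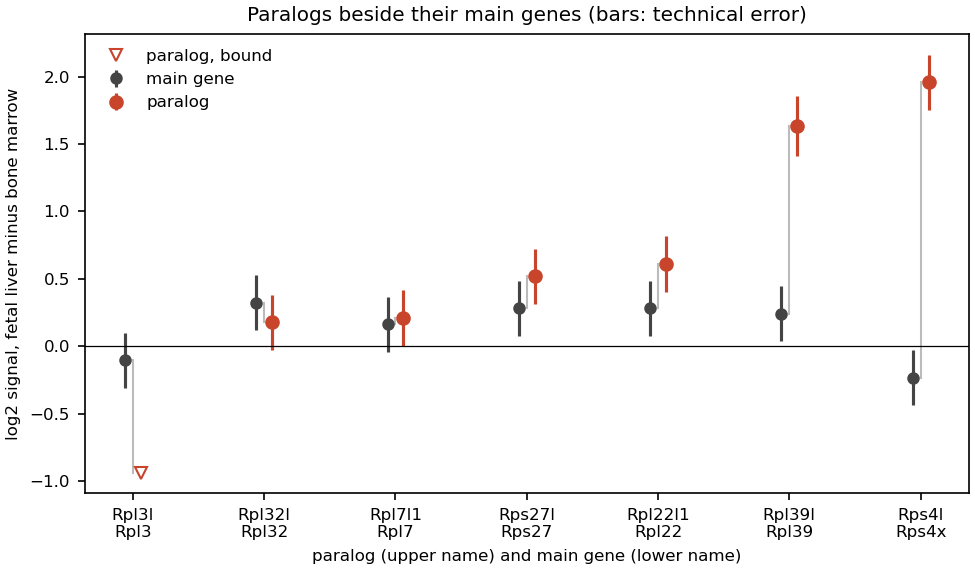
Difference (log2, fetal liver minus bone marrow, y axis) of each measured paralog, red, beside its main gene, dark grey, with bars for the technical error and an open triangle for a bound. Rps4l (1.96) lies above Rps4x (-0.23) and Rpl39l (1.63) above Rpl39 (0.24), while the error bars of Rpl32l, Rpl7l1, Rps27l and Rpl22l1 overlap those of their main genes.

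Small and large subunit genes did not separate. The median difference was 0.20 for the 31 small subunit genes, 22 of them positive. For the 46 large subunit genes it was 0.17, with 36 positive, against 57.8% positive among all measured genes. The difference of these medians ran from -0.03 to 0.03 over the alternative settings that recomputed it. The stalk proteins, which recruit the elongation factors to the ribosome, were at 0.20 for Rplp0 (439686 in marrow, 378211 in liver), -0.02 for Rplp1 and 0.06 for Rplp2. Rpsa, a small subunit protein that is also known as a laminin receptor, was at 0.28 ± 0.20 from signals of 374274 and 340457.

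The 3 lowest differences among the main genes were those of small subunit genes. Rps19, the gene most often mutated in Diamond-Blackfan anaemia, had signals of 115494 and 67424 (-0.36 ± 0.20). Rps3a1 had signals of 80678 and 47740.2 (-0.34 ± 0.20), and its second probe gave -0.44. With Rps4x at -0.23, these were the main genes more than 2 technical errors from the median of the main genes, and all 3 lay below it. Rpl21 was at -0.23, with its dimmer probes at -0.66 and -0.30, and Rpl30 at -0.20. Rps6, whose protein is the substrate of the S6 kinases, was at -0.16 ± 0.20 with signals of 235298 and 157860, close to Rps9 at -0.15. The other 2 probes of Rps6 were lower, at -0.41 (111953 and 63031) and -0.63 (11249 and 5443). Rpl23a was at -0.11 and Rpl3, which lies next to the peptidyl transferase centre, at -0.10.

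At the other end, Rpl11, whose free protein binds Mdm2 and so stabilises p53, had signals of 383535 (marrow) and 407214 (liver), a difference of 0.50 ± 0.20. Its 3 probes ran from 0.34 to 0.50. Rpl5, its partner in that role, was at 0.23 ± 0.20. Rpl41 was at 0.46, Rps27a, which is made as a fusion with ubiquitin, at 0.43 and Rpl7a at 0.42. By the brightest probe, these 3 and Rpl11 were the 4 main genes more than 2 technical errors above 0. No main gene lay as far below 0 by that probe. The 4 probes of Rpl7a ran from 0.14 to 0.42. Some other probes did lie as far below 0, such as those of Rps3a1 at -0.44 and Rpsa at -0.51. Rpl18 and Rps14 were both at 0.40, Rps7 and Rpl35 at 0.39, and Rpl13a and Rpl9 at 0.38. RPS14 is known as the gene lost in the human 5q- syndrome. Its mouse counterpart Rps14 had signals of 461534 and 454777. By the brightest probe of each gene, no main gene reached 1.5-fold in either direction under the main scaling. Other probes of some main genes did, such as those of Rpl13a at 0.71 (23134 and 28367) and 0.78 (21543 and 27736). Counted by probe over the family, paralogs included, 7 were past 1.5-fold in fetal liver and 3 in bone marrow.

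**Figure D3:**
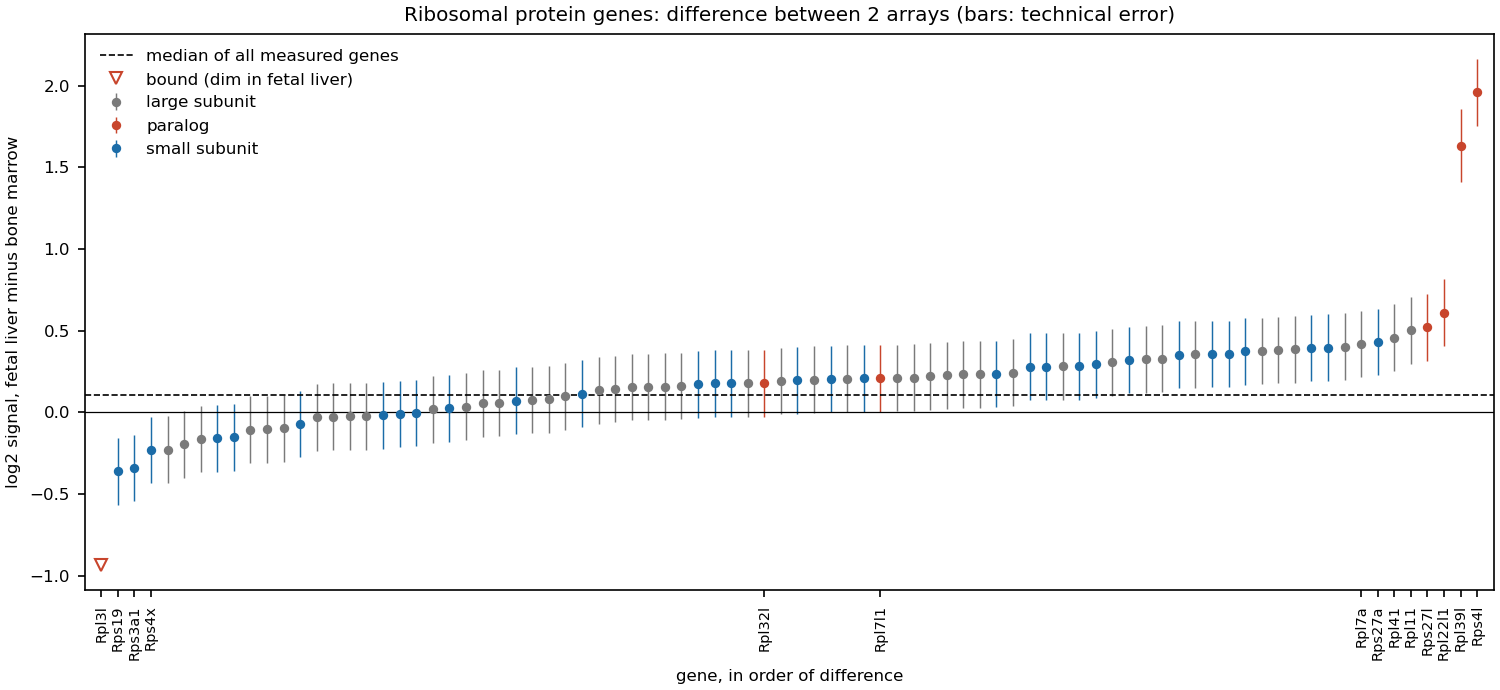
Difference (log2, fetal liver minus bone marrow, y axis) of the 84 measured members in order, with bars for the technical error, an open triangle for a bound and a dashed line at the median of all measured genes (0.11). Names are given for paralogs and for main genes more than 2 technical errors from 0 or from the main gene median. Small subunit genes in blue and large subunit genes in grey are mixed along the order, and 56 of the 77 main genes lie within 1 technical error of the main gene median of 0.18.

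Genes mutated in Diamond-Blackfan anaemia were looked at as a group. All 22 listed members were measured, and their median difference was 0.21, with 21 positive and Rps19 the exception, against 57.8% positive among all measured genes. The other 55 main genes had a median of 0.18, with 37 positive. Under spike-in scaling, which lowered each of these differences by 0.33, the direction turned. The median was then -0.12 with 6 of the 22 positive, and -0.15 with 9 of the 55 positive. All genes measured on both arrays had a median of -0.22 under that scaling, with 31.9% positive. The 4 X-linked members were Rps4x at -0.23, Rpl10 at -0.02, Rpl36a at 0.22 and Rpl39 at 0.24. Beside these, the X-inactivation transcript Xist was at -2.03 and the Y-linked Eif2s3y was higher in fetal liver by at least 53.5-fold, and the part of a different sex make-up was not tested.

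Different probes of a gene did not always give like values. Of 51 members with more than 1 measured probe, the range over probes had a median of 0.15, 6 members had a range over 0.50, and 10 had probes of both signs. That median range is not small beside the SD of 0.20 across the main genes. The order of the main genes thus depends in part on the probe taken. In Rpsa the 4 probes ran from -0.51, at signals of 41956 and 22146, to 0.28, at the brightest probe. Rpl22 had one probe at -0.49 (9875 and 5269) and one at 0.28. For Rps27a the dim probe was at 0.87 (52.7 and 72.4), above the bright ones at 0.30 and 0.43, and for Rpl6 it was at -0.53 (99.4 and 51.6), below -0.30 to -0.03. Rps24, which is spliced at its 3′ end into several transcripts, had 3 probes for 3 transcripts at -0.23, 0.04 and 0.30, all bright. Rpl17 had the most probes, 7, and they ran from 0.04 to 0.49. Ribosomal protein genes have many processed pseudogenes, so a probe can also bind transcripts of copies, and none of these values is certain to be that of the named gene alone. One probe of Rpl23 was printed as 10 spots, whose log2 signals had an SD of 0.04 on each array.

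Other genes of translation were taken from lists. For comparison, all measured genes had a median of 0.11, with 57.8% positive. The 4 ribosomal proteins that the symbol rule leaves out were all positive, with a median of 0.11, from Rpl36al at 0.07 to Rack1, a scaffold protein on the small subunit, at 0.46. The 8 measured genes of the elongation list, not all of them elongation factors, had a median of 0.07, from Eef2 at -0.24 to Eef1e1 at 0.49. Of these, 0 passed 2-fold, against 6.73% of all measured genes towards fetal liver and 8.17% towards bone marrow. The 35 measured initiation factors had a median of 0.30, with 29 positive. Eif1, which scans for the start codon, was 2.50-fold higher in bone marrow (-1.32 ± 0.20, signals of 78940 and 23669). Eif2s2, a subunit of the factor that brings the initiator tRNA, was 2.13-fold higher in fetal liver (1.09 ± 0.20, signals of 6840 and 10926). Under spike-in scaling Eif2s2 was at 0.76, and the medians of these 3 groups turned to -0.23, -0.26 and -0.037. That of all measured genes was then -0.23. The medians of the 4 ribosomal proteins and of elongation were also negative under quantile, loess and normexp settings. The 9 other TOP mRNAs measured had a median of -0.005, from Vim at -0.30 to the nucleolar chaperone Npm1 at 0.94. The 16 genes listed as regulators of ribosomal protein synthesis had a median of 0.36, with 14 positive. Some of these genes belong to the p53 pathway or to ribosomal protein import instead. Their lowest member was Mdm2, the ligase of p53, at -0.58 and their highest Heatr3, a ribosomal protein import factor, at 0.67.

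Mitochondrial ribosomal proteins, encoded in the nucleus for the ribosomes of that organelle, were set beside the cytosolic ones. Their 77 measured genes had a median difference of 0.42, with 71 positive, against 57.8% of all measured genes. Under spike-in scaling their median was 0.085, with 48 positive, against 31.9% of all genes measured on both arrays. Under the main scaling, 22 of the 77 mitochondrial genes were higher in fetal liver by 1.5-fold or more. This compares with 0 of the 77 main cytosolic genes and 17.6% of all measured genes. Whether these families differ was not tested across samples.

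The direction of the cytosolic family depended on the scaling. With both arrays scaled by 8 spike-in controls, each difference between measured signals was lower by 0.33. The median of the family was then -0.14 and that of all measured genes -0.23, and 19 of 83 members measured on both arrays were positive, against 31.9% of all such genes. Quantile normalization gave -0.03 for the family and 0.05 for all genes. Under the spike-in scaling Rps4l was still at 1.63 and Rpl39l at 1.30, both past 2-fold, and Rpl22l1 was at 0.28. Rps19 was at -0.69 and Rps3a1 at -0.67, both past 1.5-fold. The plot of medians by setting shows the cytosolic genes close to all genes and the mitochondrial genes above both.

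**Figure D4:**
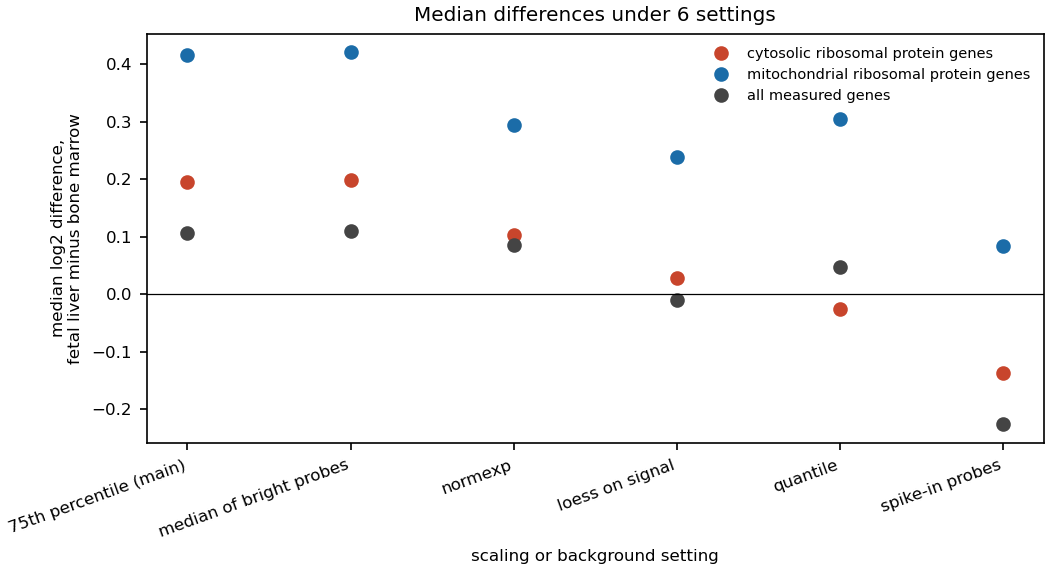
Median difference (log2, fetal liver minus bone marrow, y axis) of cytosolic ribosomal protein genes in red, mitochondrial ribosomal protein genes in blue and all measured genes in dark grey under 6 settings (x axis). The cytosolic median ran from 0.20 to -0.14, on the same side of 0 as the median of all genes except under loess and quantile normalization.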

How the data were processed

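Per the labels, 20 ng of RNA per sample was labelled with Cy3. The deposited intensity values are those of Agilent Feature Extraction 10.7.1.1, per the file headers, after background subtraction and spatial detrending within each array. Flags of 0 or 1 and the software's errors came with them. The series table holds a linear ratio deposited by the authors. It equalled the processed signal over 1 constant per array (178.6 and 133.9) within 0.1% for 99.99% of single-spot probes, with column medians of 0.0589 and 0.0604, which shows a linear scale with no centring of genes.

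Outlier spots (137 and 122) were dropped and spots of a probe averaged. No spot was saturated. Signals were divided by each array's 75th percentile (178.9 and 133.98) and log2 transformed (Python 3.11.15, pandas 2.3.3). Probes well above background made up 47.4% and 46.4%. Symbols came from RefSeq's table (GRCm38.p6, names only, as the design uses mm9) for 27226 of 55664 probes. A gene took its brightest probe. A value dim on 1 array is a bound against the lowest signal well above background. The median technical error was 0.20. Replicate spots of 240 probes gave a median SD of 0.09, and of 0.06 among the brightest of them. The number of arrays limits the precision.

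Members, lists and named genes were chosen with earlier results of these data known. Named were all paralogs, the 10 highest and 10 lowest main genes, any gene past 1.5-fold, dim on an array or with probes over 0.50 apart, the stalk genes and Rpsa, and from other lists the extremes and any past 2-fold. Rpl5, Rpl10, Rpl36a and Rpl17 fall outside this rule, and values of some genes that it names are not reported here. Normexp and loess used limma 3.58.1, normexp with an offset of 50 on median spot signals in place of mean signals. The scaling was tested on simulated data, with noise drawn from the software's errors. Only probes well above background on both arrays were checked there, so the bounds were not tested.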

Additional observations from a re-analysis of the deposited data

How the results depend on the processing

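No paired analysis was possible because each group has 1 array. Of 340 recomputed values, 293 moved by less than their technical error or, for counts, by at most 1.5 times. Of these, 12 changed sign, among them the medians of elongation and of the 4 other ribosomal proteins under loess and normexp. The family median under loess also counts among the 293, though it fell from 0.20 to 0.03. The limit was thus wide for medians of that size, and the count of 293 does not show that they held. Spike-in scaling lowered the medians, to -0.14 for the family, -0.13 for small and -0.16 for large subunit genes, -0.23 for the 4 other ribosomal proteins, -0.26 for elongation, -0.037 for initiation, -0.34 for other TOP mRNAs and 0.029 for regulators. It left 19 members positive, with 3 past 1.5-fold and 1 past 2-fold towards bone marrow. Quantile normalization gave -0.025 for the family, -0.048 for small and -0.038 for large subunit genes, -0.10 for the 4 other proteins and 37 positive members. With normexp, 1 member was past 2-fold towards fetal liver and 0 past 1.5-fold towards bone marrow, Rpl39l exceeded Rpl39 by 0.91, and Rpl3l minus Rpl3 turned to 0.22. Loess put 1 member past 2-fold in bone marrow, as did leaving out the filter on dim probes, which moved Rpl3l minus Rpl3 to -1.72. Genes above background on both arrays gave 0 past 1.5-fold towards bone marrow, the lowest probe gave 3, and the highest probe gave 6 towards fetal liver. Rpl22l1 minus Rpl22 was 1.1005 by the lowest probe and 0.71 by the mean. Counted by probe, 126 were positive, 7 were past 1.5-fold in fetal liver and 3 in bone marrow. Without the paralogs every count of 1.5-fold and 2-fold differences was 0. Fewer genes or other probes account for the counts by construction. Elsewhere the cause was not tested. Low signals such as those of Rpl39l and Rpl3l limit what can be said of paralogs.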
